A study of Caenorhabditis elegans with 21 samples.

Results

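The comparison set *pmk-1(D327E)* worms directly against *pmk-1(-)* worms, both with *daf-16* intact, and took 6 of the 21 *C. elegans* mRNA libraries of the series, 3 for each genotype. The members were chosen by the genotype in the labels. The *D327E* strain carries the *miy7* allele, in which the aspartate at the caspase site of PMK-1 is replaced by glutamate so that the CED-3 caspase no longer cuts the protein, and the null strain carries *km25*. Wild-type worms, siblings of the *D327E* strain, gave 3 further libraries, and both *pmk-1* alleles were also sequenced in 2 *daf-16* backgrounds, *mgDf50* and *m26*, with 2 libraries for each of *daf-16;pmk-1(D327E)*, *daf-16;pmk-1(-)* and *daf-16* alone. Hermaphrodites were fed from the L1 larva for 48 h at 20 °C and collected whole, at a stage that the labels call late L4 and the study's methods call young adult. Each genotype is 1 strain, so a difference between strains other than the named alleles cannot be told apart from the alleles. The libraries of a genotype are separate samples of many worms. The p-values measure the spread between libraries of a genotype, pooled over all 21 libraries and not only the 6 compared.

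PMK-1 is the p38 MAP kinase of *C. elegans*. In the intestine the adaptor TIR-1 and the kinases NSY-1 and SEK-1 activate it, and it acts through the transcription factor ATF-7 on genes for secreted immune effectors such as CUB-like proteins, C-type lectins and lysozymes. In the epidermis it is needed for antimicrobial peptide genes such as *nlp-29*. CED-3 is the caspase of programmed cell death, and DAF-16 is the FOXO transcription factor of the insulin pathway. The question put to the 6 libraries is what differs between worms whose PMK-1 cannot be cut and worms with no PMK-1.

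Immune effector transcripts were the largest differences. Of 12843 genes tested, 139 passed an adjusted p of 0.1 (1.08% of those tested), of which 107 were higher in *pmk-1(D327E)* (0.833%) and 32 lower (0.249%). The test was limma on log2(TPM + 1) with Benjamini-Hochberg adjustment over all genes tested, TPM being length-scaled transcript abundance as deposited. All log2 fold changes below are on that scale, which understates the change of genes at low TPM. Of the genes that rose, 81 differed by at least 1 on the log2 scale, 36 by at least 2 and 17 by at least 3. Of the genes that fell, 21 differed by at least 1, 4 by at least 2 and 0 by at least 3. The 3 libraries a side did not overlap for any of the 139, against 6.28% of all tested genes without overlap (2.9% higher and 3.38% lower in *D327E*). The median log2 fold change over all tested genes was 0.03.

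**Figure D1:**
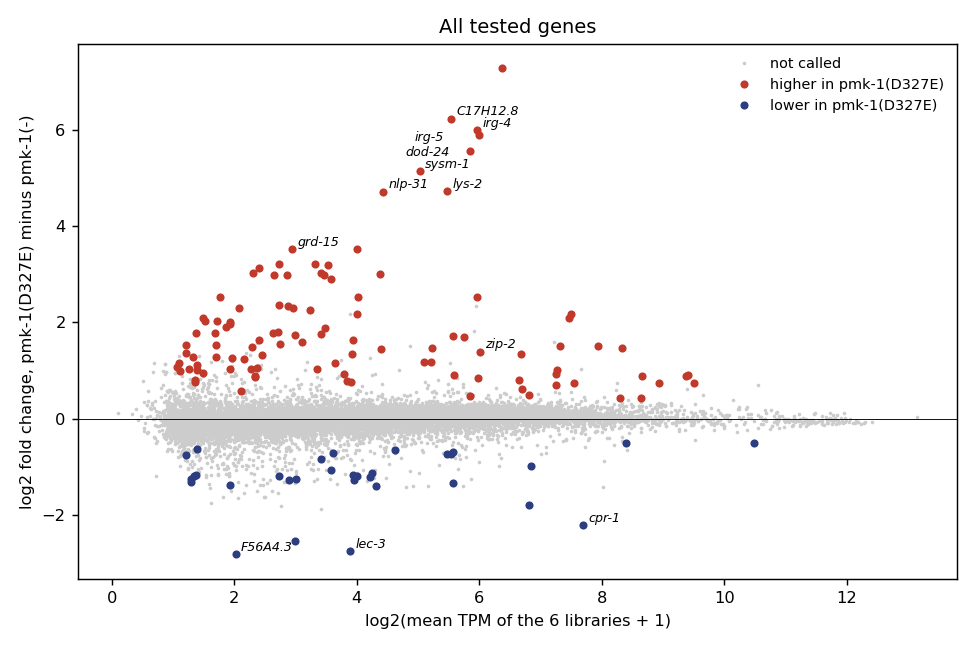
Log2 fold change of every tested gene, *pmk-1(D327E)* minus *pmk-1(-)*, against log2 of the mean TPM of the 6 libraries + 1. Red points are the 107 genes called higher, blue points the 32 called lower and grey points the genes not called, and the rises reach further from 0 than the falls.

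The counts, above all of the falls, moved with the libraries used. With 1 library left out, the total was 82 without *D327E* library 1, 89 without *D327E* library 3 and 236 without null library 2, and stayed within 1.5 times of 139 without any other. The rises numbered between 70 and 112 over the 6 fits, with the 70 coming from leaving out *D327E* library 1. The falls numbered 12, 20 and 16 without *D327E* library 1, 2 or 3, and 16, 137 and 15 without null library 1, 2 or 3. A fit of only the 6 libraries called 46 rises and 5 falls. Of the 12 largest rises, 11 passed in every alternative that tested them, and of the 12 largest falls, 3 did.

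The null libraries lay far apart. Along the first principal component, which held 69.7% of the variance of the 6 libraries, the *D327E* libraries lay at 14.9, 25 and -13.6 and the null libraries at -57.8, 49.2 and -17.7. The second component held 18% and separated the genotypes. The 17 oocyte and eggshell genes summed to 9067, 9164 and 7747 TPM in *D327E* libraries and to 5227, 10420 and 7214 TPM in null libraries. The 6 body wall muscle markers summed to 2621, 2366 and 3114 TPM in *D327E* libraries and to 4516, 2125 and 3126 TPM in null libraries. Neither list had a called member by limma, and 0 of their genes had an unadjusted p under 0.05. Among the 32 genes that fell, null library 2 was the lowest of the null libraries for 22, and among the 107 that rose it was the lowest for 67. Null library 1 was the highest of them for 73 of the 107. Null library 2 also had the lowest median TPM of the 6 libraries (1.302), and the same counts over all tested genes were not taken. With the mean of the oocyte and eggshell genes as a covariate, 441 genes passed, among them all 139.

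Transcripts of the kinase cascade itself did not pass the adjusted test. *pmk-1* averaged 13.5 ± 0.668 TPM in *D327E* worms and 11.3 ± 0.552 TPM in null worms (SD, n = 3 each; log2 fold change 0.23, SE 0.10, adjusted p = 0.93). Its libraries did not overlap, and the transcript was measured in all null libraries, so gene-level values are no check of either allele. *sek-1*, the kinase that phosphorylates PMK-1, had 29.3, 29.7 and 29.4 TPM in *D327E* worms, against 35.8, 34.6 and 32.5 TPM in null worms (log2 fold change -0.21, SE 0.08, adjusted p = 0.52). The phosphatase gene *vhp-1*, whose product removes phosphate from PMK-1, had 10.5, 8.68 and 11.3 TPM in *D327E* worms, against 8.76, 7.35 and 7.04 TPM in null worms (log2 fold change 0.35, adjusted p = 0.90). Of the 7 cascade genes tested, 0 passed limma's test at an adjusted p of 0.1. At an unadjusted p of 0.05, *sek-1*, *pmk-1* and *vhp-1* passed, 3 of the 7, against 567 of all 12843 genes (4.41%). The libraries of *vhp-1* overlapped, as did those of *tir-1*, *nsy-1*, *pmk-2* and *pmk-3*. These last 4 genes had log2 fold changes between -0.19 and 0.03. Of the caspase pathway genes, *ced-3*, *ced-4* and *ced-9* were tested and none passed limma's test, at an adjusted p or at an unadjusted p of 0.05. *ced-3* had 110.8, 113.4 and 94.3 TPM in *D327E* worms, against 67.2, 128 and 76.4 TPM in null worms, with overlap.

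Among 16 transcriptional and stress regulators, *zip-2* alone passed. *zip-2*, which encodes a bZIP factor of the infection response, had 102.6, 83.8 and 89.7 TPM in *D327E* worms, against 44.1, 29.4 and 31.6 TPM in null worms (log2 fold change 1.39, SE 0.25, adjusted p = 0.012). Every *D327E* library lay well above the highest null library. *atf-7*, *skn-1*, *elt-2*, *elt-7*, *hlh-30*, *daf-16* and *hsf-1* did not pass, and their libraries overlapped. *nipi-3*, a Tribbles-like kinase gene of the epidermal response, was at 14.7, 15.3 and 14.9 TPM in *D327E* worms and at 19.8, 19.5 and 17.4 TPM in null worms and did not pass (log2 fold change -0.31, adjusted p = 0.78).

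The largest rises were in genes for CUB-like proteins of the infection response. *C17H12.8* had 79.7, 49.97 and 143 TPM in *D327E* worms, against 0.169, 0.028 and 0.152 TPM in null worms (log2 fold change 6.24, SE 0.51, adjusted p = 4.1e-06). *irg-4*, listed in the files as F08G5.6, had 107, 148 and 111 TPM in *D327E* worms, against 1.17, 1.12 and 0.51 TPM in null worms (log2 fold change 5.996, SE 0.42). *irg-5*, listed as F35E12.5, had 133, 123 and 118 TPM in *D327E* worms, against 0.881, 1.02 and 1.49 TPM in null worms (log2 fold change 5.89, SE 0.45). These transcripts were abundant in every *D327E* library and close to absent in every null library. *C17H12.8* and *irg-4* lie on chromosome IV. The forward RT-qPCR primers that the study designed for them are shown because they are alike. Of 22 bases, 20 are the same, and the 2 that differ are in capitals.
irg-4 forward primer: gtCccactGtcacaagctcaac
C17H12.8 forward primer: gtTccactTtcacaagctcaac
No other stretch of these genes was compared. How reads that fit both genes were divided was not examined, so the split of reads between them is uncertain.

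**Figure D2:**
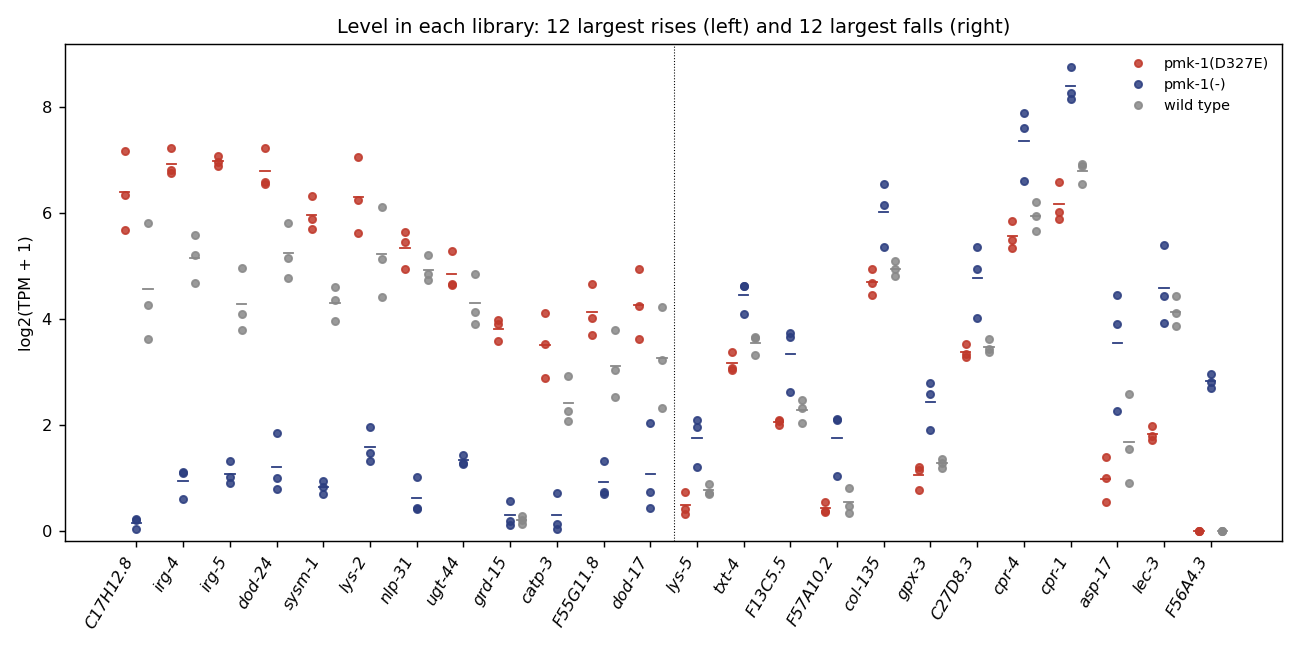
Log2(TPM + 1) in each library of *pmk-1(D327E)* (red), *pmk-1(-)* (blue) and wild type (grey) for the 12 largest rises and the 12 largest falls, with a short bar at each group mean. The red and blue points do not overlap for any of the 24 genes, and *grd-15* is the rise for which wild type sits with the null libraries.

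A run of neighbouring genes on chromosome IV rose together. *C32H11.4*, *dod-24*, *F55G11.8*, *dod-22*, *F55G11.2*, *F55G11.4* and *dod-17* followed each other among the tested protein-coding genes of the reference annotation, and all 7 passed in the same direction. *dod-24*, a CUB-like gene whose name comes from lying downstream of DAF-16, had 94.5, 92.8 and 149 TPM in *D327E* worms, against 2.60, 0.725 and 0.998 TPM in null worms (log2 fold change 5.57, SE 0.47, adjusted p = 5.5e-06). *dod-22* had 7.18, 4.59 and 13.8 TPM in *D327E* worms and was listed at 0 in all null libraries. The other members of the run had log2 fold changes between 2.25 for *F55G11.4* and 3.21 for *F55G11.8*. For *dod-17* the libraries were at 17.9, 11.3 and 29.7 TPM in *D327E* worms and at 3.10, 0.341 and 0.67 TPM in null worms (log2 fold change 3.1997, SE 0.64, adjusted p = 0.024). Its adjusted p was 0.10 without *D327E* library 1, 0.15 without *D327E* library 3 and 0.13 without null library 3.

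Other neighbours also rose together. Of 137 called protein-coding genes, 35 lay next to a gene called in the same direction. That count takes in the run above and *tcl-2* with *pnc-1*, which both fell. How many would lie so by gene order alone was not tested. The other rises included *clec-62*, *clec-63*, *clec-65* and *clec-66* on chromosome II, *F01D5.1*, *F01D5.2* and *F01D5.3* on II, *K08D8.4* and *K08D8.5* on IV, *lys-1* and *lys-2* on V, and *nlp-29*, *nlp-30* and *nlp-31* on V. The called rises made up 1.67% of the tested genes of chromosome IV and 1.60% of those of V, against 0.191% on I, 0.88% on II, 0.303% on III and 0.433% on X. The remaining 2 called features were piRNA entries, *21ur-13425* inside *C17H12.8* and *21ur-15387* inside *F55G11.4*, each on the strand of its host gene, so their reads cannot be told apart from those of the host. *21ur-13425* had 139, 111 and 239 TPM in *D327E* worms and was listed at 0 in all null libraries, and its fitted log2 fold change of 7.28 was above that of any named gene.

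*sysm-1*, listed as T24B8.5, is a widely used reporter gene of PMK-1 activity and had the smallest p of all genes tested. Its transcript was at 50.9, 57.8 and 78.9 TPM in *D327E* worms, against 0.926, 0.778 and 0.617 TPM in null worms (log2 fold change 5.14, SE 0.19, adjusted p = 1e-09). Wild-type worms had 19.5, 14.5 and 23.4 TPM, between the mutants. Of the 33 innate immunity genes that the study listed, 30 rose, 2 fell and 1 did not pass, with a median log2 fold change of 2.52. This list was chosen by the study on these null libraries against wild type, so its direction is not independent evidence. The 33 genes summed to 1618, 1500 and 2121 TPM in *D327E* worms, to 455.9, 258.8 and 315.5 TPM in null worms and to 979, 718.7 and 1270 TPM in wild-type worms. The 2 that fell were the lysozyme gene *lys-5* and the thaumatin-like gene *thn-2*, and the one that did not pass was *sodh-1*, which encodes an alcohol dehydrogenase.

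Lysozymes moved both ways. *lys-2* had 75.1, 48.0 and 131 TPM in *D327E* worms, against 2.89, 1.49 and 1.76 TPM in null worms (log2 fold change 4.72, SE 0.38, adjusted p = 3.4e-06). *lys-1* had 338, 282 and 458 TPM in *D327E* worms, against 168, 92.7 and 122 TPM in null worms (log2 fold change 1.4997). *lys-8* also rose (log2 fold change 0.79). In the other direction, *lys-5* had 0.331, 0.24 and 0.655 TPM in *D327E* worms, against 2.88, 1.30 and 3.26 TPM in null worms (log2 fold change -1.27, adjusted p = 0.027), and *ilys-5* was at 1095, 1211 and 1220 TPM in *D327E* worms and at 1505, 1520 and 2083 TPM in null worms (log2 fold change -0.52, adjusted p = 0.096). Of 9 lysozyme genes tested, 3 rose and 2 fell, where 0.833% of all tested genes rose and 0.249% fell. *lys-4* had 132.3, 102.2 and 148.9 TPM in *D327E* worms, against 492.2, 150.2 and 526.9 TPM in null worms and did not pass (adjusted p = 0.20), with null library 2 next to the *D327E* libraries.

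Some C-type lectins, secreted carbohydrate-binding proteins, rose. Of 79 tested, 10 rose and 1, *clec-80*, fell, while the median log2 fold change over the family was -0.11. Of all tested genes, 0.833% rose and 0.249% fell. *clec-67* and *clec-85* rose furthest. *clec-67* had 6.29, 4.51 and 12.798 TPM in *D327E* worms, against 0.018, 0 and 0.0188 TPM in null worms (log2 fold change 3.02, SE 0.46, adjusted p = 0.0025). *clec-85* had 33.8, 27.4 and 46.4 TPM in *D327E* worms, against 4.31, 2.49 and 3.86 TPM in null worms (log2 fold change 3.01, SE 0.24). The other called lectins that rose, *clec-4*, *clec-41*, *clec-62*, *clec-63*, *clec-65*, *clec-66*, *clec-223* and *clec-265*, had log2 fold changes between 1.33 and 2.33.

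Some antimicrobial peptide genes of the epidermis rose too. *nlp-31* had 42.9, 48.7 and 29.6 TPM in *D327E* worms, against 0.332, 1.02 and 0.348 TPM in null worms (log2 fold change 4.72, SE 0.36, adjusted p = 2.8e-06). *nlp-29* had 25.5, 33.1 and 19.7 TPM in *D327E* worms, against 8.64, 1.84 and 2.501 TPM in null worms (log2 fold change 2.53, adjusted p = 0.026). *cnc-4* had 4.41, 5.42 and 4.46 TPM in *D327E* worms and was listed at 0 in all null libraries. *nlp-30* and *cnc-3* rose at log2 fold changes of 1.52 and 1.29. Of 11 tested peptide genes, 5 rose and 0 fell, with a median log2 fold change of 1.16, where 0.833% of all tested genes rose. The 5 became 3, 2, 3 and 2 without *D327E* library 1, *D327E* library 2, null library 1 or null library 3. The sum over the list, untested members included, overlapped. It was 435.6, 488.3 and 482.4 TPM in *D327E* libraries, against 524.5, 245.2 and 438.2 TPM in null libraries.

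**Figure D3:**
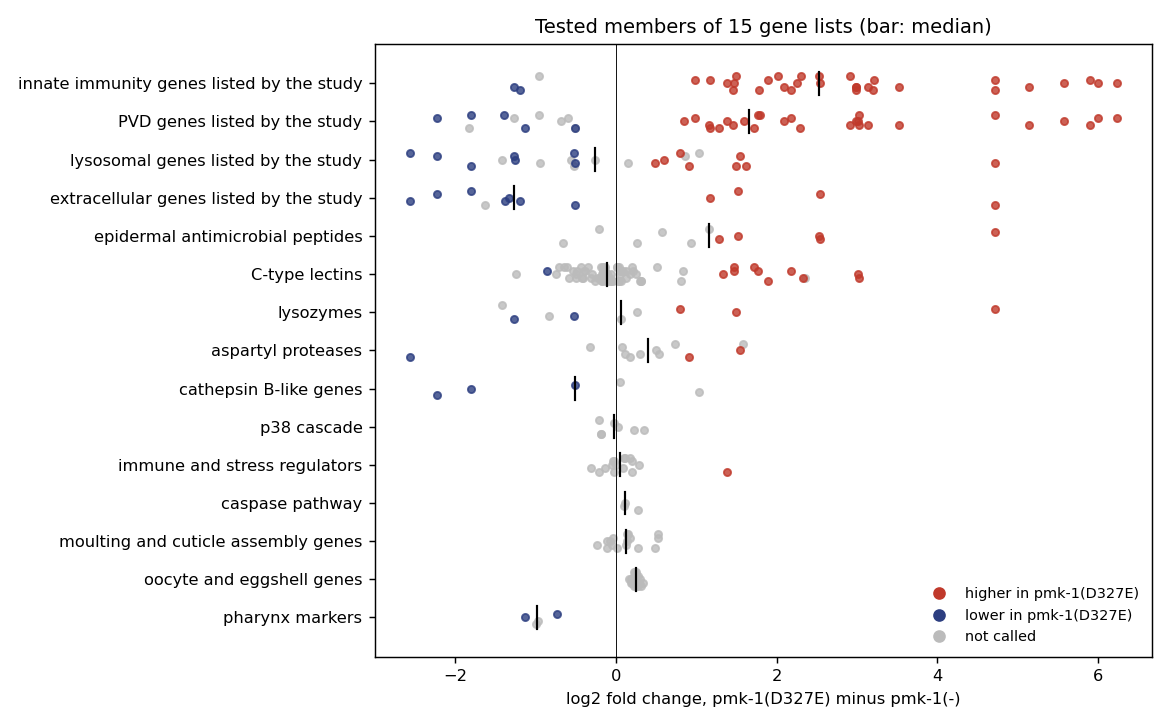
Log2 fold change, *pmk-1(D327E)* minus *pmk-1(-)*, of every tested member of 15 gene lists, with red for genes called higher, blue for genes called lower, grey for genes not called and a black bar at the list median. The innate immunity list lies mostly to the right (median 2.52), the cathepsin B-like genes that passed lie to the left, and the p38 cascade and oocyte lists cluster near 0 with none called.

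Transporters and metabolic enzymes were among the rises outside the effector families. *ugt-44*, a UDP-glucuronosyltransferase gene, had 24.1, 24.0 and 37.6 TPM in *D327E* worms, against 1.44, 1.40 and 1.70 TPM in null worms (log2 fold change 3.53, SE 0.23, adjusted p = 8.8e-07), and was the only one of 46 tested *ugt* genes that passed. *catp-3*, a P-type cation ATPase gene, had 10.5, 6.36 and 16.3 TPM in *D327E* worms, against 0.649, 0.027 and 0.09 TPM in null worms (log2 fold change 3.21, SE 0.36). *swt-6*, a sugar transporter gene, rose by 1.91 on the log2 scale, the ammonium transporter gene *amt-1* by 1.78 and the folate transporter gene *folt-2* by 0.89. The acyltransferase gene *oac-20* (2.02) and the glutathione S-transferase gene *gst-22* (1.06) rose, each the only one called of 7 and 29 tested members of its family. Of 42 tested cytochrome P450 genes, 0 passed limma's test and 3 had an unadjusted p under 0.05, where 4.41% of all tested genes did. The F-box genes *fbxa-105*, *fbxa-190* and *fbxa-192* rose, 3 of 74 tested, where 0.833% of all tested genes rose. *fbxa-192* had 10.7, 9.98 and 9.31 TPM in *D327E* worms, against 2.64, 0.29 and 1.05 TPM in null worms, with wild type above both at 22.5, 26.7 and 21.7 TPM.

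Rises were also found in other infection response and regulatory genes, described after their values were seen. *irg-8*, listed as ZK6.11, had 245, 184 and 408 TPM in *D327E* worms, against 119.5, 29.4 and 66.2 TPM in null worms (log2 fold change 2.08, SE 0.50, adjusted p = 0.088). *dod-23* had 220.1, 239 and 247 TPM in *D327E* worms, against 64.9, 94.3 and 89.7 TPM in null worms (log2 fold change 1.51, SE 0.16, adjusted p = 6.2e-05). The libraries of both genes were apart, *dod-23* by a wider margin than its spread within a genotype. *arrd-9*, an arrestin-domain gene, had 2.23, 2.32 and 2.41 TPM in *D327E* worms, against 0.242, 0.279 and 0.338 TPM in null worms (log2 fold change 1.37, SE 0.13). The nuclear receptor genes *nhr-74* and *nhr-50* rose by 1.01 and 0.80 on the log2 scale, both at under 3 TPM in each of the 6 libraries compared. For 36 of the 107 genes that rose, the mean in null worms was under 1 TPM, and for 0 of them was the mean in *D327E* worms that low. Genes were tested only if they averaged 1 TPM or more over all libraries. A gene low in null worms could pass that filter only through other genotypes, so the 36 and 0 are no separate result.

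Genes for cathepsin B-like cysteine proteases were among the largest falls. *cpr-1* had 58.3, 95.3 and 63.3 TPM in *D327E* worms, against 283, 305 and 429 TPM in null worms (log2 fold change -2.22, SE 0.22, adjusted p = 3.9e-05). *cpr-4* had 43.6, 39.4 and 56.7 TPM in *D327E* worms, against 235.4, 96.0 and 194 TPM in null worms (log2 fold change -1.81, SE 0.28, adjusted p = 0.0032). *cpr-5* had 269, 282 and 278 TPM in *D327E* worms, against 475, 326.8 and 393 TPM in null worms (log2 fold change -0.51, adjusted p = 0.082). In each of the 3 the highest *D327E* library lay under the lowest null library. *cpr-3* was at 6.66, 5.24 and 10.5 TPM in *D327E* worms and at 4.08, 1.70 and 3.73 TPM in null worms and did not pass (log2 fold change 1.03, adjusted p = 0.37). Of 5 tested members, 3 fell and 0 rose, where 0.249% of all tested genes fell and 0.833% rose.

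Aspartyl proteases split. *asp-6* had 807, 756 and 1080 TPM in *D327E* worms, against 547, 329 and 552 TPM in null worms (log2 fold change 0.91, adjusted p = 0.072), and its neighbour *asp-12* rose by 1.55. *asp-17* had 1.00, 0.463 and 1.62 TPM in *D327E* worms, against 20.98, 3.79 and 13.9 TPM in null worms (log2 fold change -2.56, SE 0.53, adjusted p = 0.033). The call for *asp-17* was lost without *D327E* library 1 or 2 and without null library 1 or 3, at adjusted p between 0.135 and 0.181. Of 12 tested aspartyl protease genes, 2 rose and 1 fell, where 0.833% of all tested genes rose and 0.249% fell. Of the 23 tested genes on the study's lysosomal list, 8 rose and 7 fell, with a median of -0.26. The 15 calls became 6, 8, 7 and 9 without *D327E* library 1, 2 or 3 or null library 3. Of 12 tested genes on the study's extracellular list, 4 rose (*nlp-29*, *nlp-30*, *nlp-31* and the astacin protease gene *nas-11*) and 7 fell (*cpr-1*, *cpr-4*, *cpr-5*, *asp-17*, *thn-2*, *gpx-3* and *col-135*), with a median of -1.26. The 11 calls became 5, 7, 7 and 5 without *D327E* library 1, *D327E* library 2, null library 1 or null library 3. Of 38 tested genes on its list for the PVD sensory neuron, which shares *irg-4*, *sysm-1* and other effector genes with the immunity list, 27 rose and 5 fell (median 1.65). These 3 lists too were chosen by the study on these null libraries.

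Several smaller falls were lost with 1 library left out. *gpx-3*, a glutathione peroxidase gene, had 0.716, 1.31 and 1.22 TPM in *D327E* worms, against 5.95, 2.72 and 5.01 TPM in null worms (log2 fold change -1.38, adjusted p = 0.025). *col-135*, a collagen gene, had 24.7, 29.6 and 20.8 TPM in *D327E* worms, against 40.1, 92.5 and 70.01 TPM in null worms (log2 fold change -1.33, adjusted p = 0.052). With a library left out, adjusted p reached 0.17 for *gpx-3*, 0.28 for *col-135*, 0.215 for *F57A10.2*, 0.15 for *F13C5.5* and 0.17 for *lys-5*. *txt-4*, listed as K03H6.2, had 7.15, 9.40 and 7.43 TPM in *D327E* worms, against 15.9, 23.6 and 23.6 TPM in null worms (log2 fold change -1.28, SE 0.21, adjusted p = 0.0048), and passed in each of those 6 fits. *spp-4*, a saposin-like gene, fell by 0.99, and *pnc-1*, which encodes a nicotinamidase, was at 17.6, 18.7 and 18.2 TPM in *D327E* worms and at 30.1, 28.6 and 28.9 TPM in null worms (log2 fold change -0.66, SE 0.11). The pharyngeal troponin genes *tnc-2* and *tni-4* fell by 1.14 and 0.73. The 5 pharynx markers summed to 43.55, 46.55 and 47.39 TPM in *D327E* libraries and to 136.1, 60.1 and 86.8 TPM in null libraries. *tni-4* alone held 31.1, 31.2 and 33.2 TPM of the *D327E* sums and 69.8, 38.5 and 56.6 TPM of the null sums. *myo-2* and *myo-1* did not pass and overlapped. They were at 15.1 and 15.5 TPM in null library 1 but at 0.887 and 1.16 TPM in null library 3, under every *D327E* library. The part of the pharynx in the falls was not tested. Less RNA of a cell type and fewer cells of it cannot be told apart in whole worms.

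Wild type lay between the mutants for most called genes. Its mean was between the 2 mutant means for 94 of the 107 genes that rose and for 28 of the 32 that fell. On the log2 scale it sat, at the median gene, 73.6% of the way from the null to the *D327E* level among the rises. All 3 *D327E* libraries were above all 3 wild-type libraries for 39 of the 107, and all 3 wild-type libraries were above all 3 null libraries for 91. For *irg-5* wild type had 30.1, 12.82 and 16.1 TPM and for *irg-4* 47.1, 35.95 and 24.4 TPM, well under the *D327E* levels given above. These are levels only, as the contrast did not use the wild-type libraries. The genes were called for a gap between the mutants, which by itself favours a wild-type level between them. The same counts over all tested genes were not taken.

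The same contrast was then read in the double mutants, whose libraries are separate. Of the 107 rises, all but 2 were also higher with *D327E* than with the null allele in *daf-16(mgDf50)*, and 84 passed there, where 1.26% of all tested genes passed in either direction. In *daf-16(m26)* all but 3 were higher and 69 passed, where 0.747% of all genes did, and 65 passed in both. The median log2 fold change of the 107 was 1.71 in *mgDf50* and 1.36 in *m26*, against 1.51 with *daf-16* intact, while the medians over all genes were 0.03 in *mgDf50* and -0.04 in *m26*. *irg-5* had log2 fold changes of 7.01 and 7.22 in the 2 backgrounds and *sysm-1* of 5.28 and 5.13. Of all tested genes, 58.8% were higher with *D327E* in *mgDf50* and 34.7% in *m26*. Of the 32 falls, 26 were lower in *mgDf50* with 8 passing, where 41.2% of all genes were lower, and 29 were lower in *m26* with 8 passing, where 65.3% were. Of the falls, 4 passed in both, *cpr-1*, *cpr-4*, *thn-2* and *F56A4.3*. In a fit of the double mutants alone, 59 of the 139 called genes passed in the same direction in *mgDf50*, against 92 in the fit of all genotypes.

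**Figure D4:**
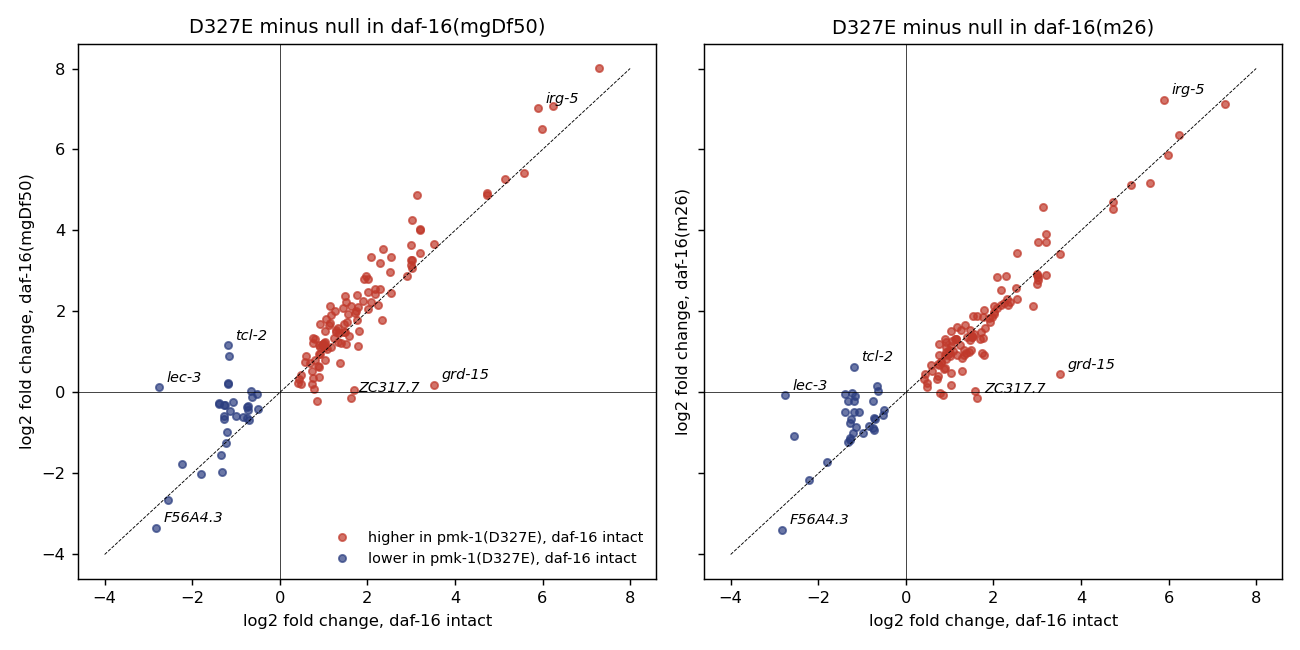
Log2 fold change, *D327E* minus null, of the 139 called genes in *daf-16(mgDf50)* (left) and *daf-16(m26)* (right) against the same contrast with *daf-16* intact, red for rises and blue for falls, with a dashed line where both are equal. Most red points lie near the dashed line, while *grd-15*, *lec-3*, *tcl-2* and *ZC317.7* lie near or across 0 in the double mutants.

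The difference between backgrounds itself passed limma's test for few genes, 8 in *mgDf50* (0.0623% of those tested) and 2 in *m26* (0.0156%), and of the 139 called genes only for *grd-15*, *lec-3* and *tcl-2*. *grd-15*, a gene of the hedgehog-related groundhog family, had 14.7, 13.9 and 10.9 TPM in *D327E* worms, against 0.481, 0.139 and 0.0839 TPM in null worms (log2 fold change 3.52, SE 0.27, adjusted p = 2.8e-06). In each of the other 8 genotypes, wild type and both *D327E* double mutants included, no library exceeded 1.42 TPM. *lec-3*, a galectin gene, had 2.44, 2.26 and 2.93 TPM in *D327E* worms, against 40.8, 14.2 and 20.5 TPM in null worms (log2 fold change -2.76, SE 0.31, adjusted p = 1.1e-04). In the 2 *D327E* double mutants *lec-3* was at 29.6 and 23.7 TPM in *mgDf50* and at 23.1 and 17.6 TPM in *m26*. Both genes thus stood apart in 1 strain, and a difference of that strain cannot be told apart from an effect of *D327E* with *daf-16* intact.

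*F56A4.3* showed another pattern across strains. It was listed at 0 in all 3 *D327E* libraries, against 6.03, 5.50 and 6.82 TPM in null worms (adjusted p = 4.3e-07), and at 0 in both *D327E* double mutants and at 6.75 to 12.2 TPM in both null double mutants. Wild type and *daf-16(m26)* were listed at 0 as well, while *daf-16(mgDf50)* with wild-type *pmk-1* had 14.8 and 11.45 TPM. Its level did not follow the *pmk-1* genotype in all 9 strains. *ZC317.7* had 6.30, 7.36 and 7.07 TPM in *D327E* worms, against 0.849, 1.28 and 2.90 TPM in null worms (log2 fold change 1.63, SE 0.22). In *mgDf50* worms it was at 6.53 and 8.51 TPM with *D327E*, against 7.33 and 9.31 TPM with the null allele. With wild-type *pmk-1* it was at 1.71 and 2.13 TPM in *mgDf50* and at 4.22 and 3.0 TPM in *m26*. The level of *ZC317.7* thus did not follow the *pmk-1* genotype across strains either. Like *ZC317.7*, *F47D12.9* was not higher with *D327E* in either background. For neither gene did the difference between backgrounds pass its test. *C27D8.3* had 8.66, 9.09 and 10.5 TPM in *D327E* worms, against 29.7, 39.9 and 15.2 TPM in null worms (log2 fold change -1.39, adjusted p = 0.013), and was between 9.26 and 15.7 TPM in every double mutant library.

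**Figure D5:**
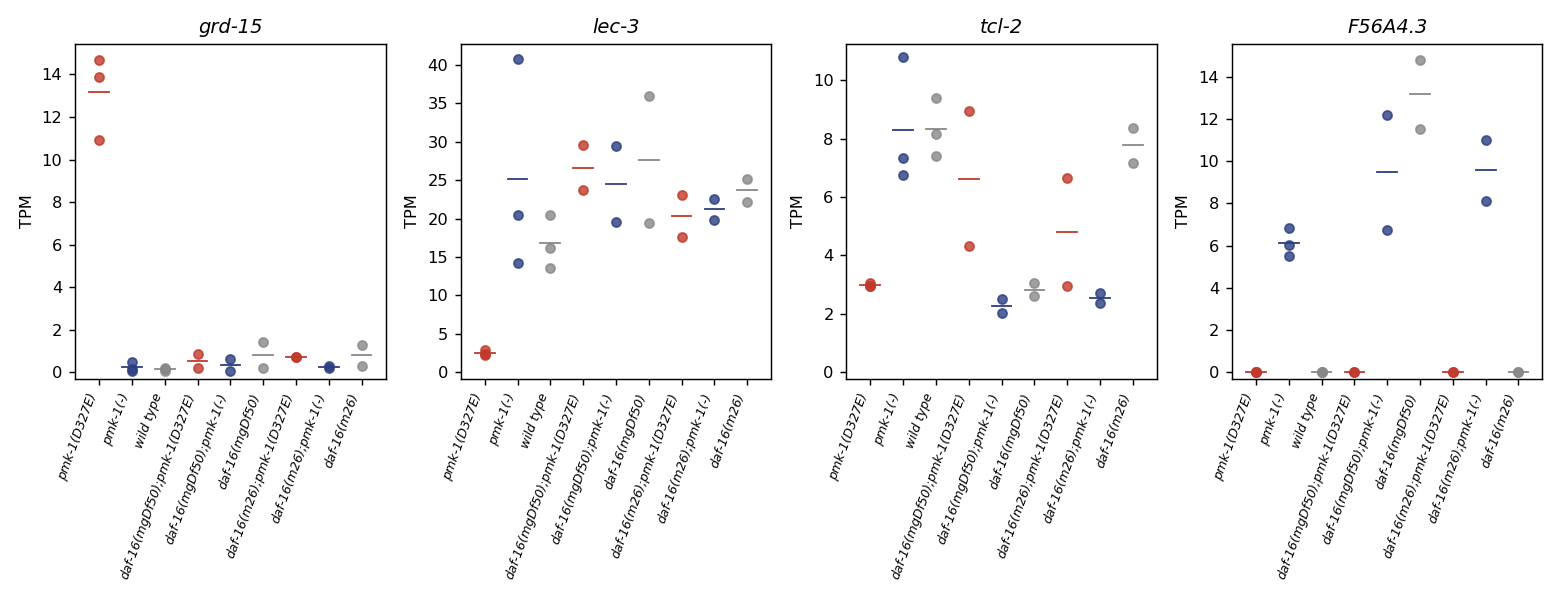
TPM of *grd-15*, *lec-3*, *tcl-2* and *F56A4.3* in every library of the 9 genotypes, red for *D327E*, blue for the null allele, grey for wild-type *pmk-1*, with a bar at each mean. *grd-15* is high and *lec-3* low only in *pmk-1(D327E)* with *daf-16* intact, and *F56A4.3* is also present in *daf-16(mgDf50)* with wild-type *pmk-1*.

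Lists for growth and reproduction held few called genes or none. Of 16 tested moulting and cuticle assembly genes, 6 yolk genes, 17 oocyte and eggshell genes and 29 major sperm protein genes, 0 passed limma's test, as for the 76 cytosolic ribosomal protein genes, and 0 of these had an unadjusted p under 0.05. The yolk genes summed to between 11570 and 12660 TPM in *D327E* libraries and to between 8960 and 13310 TPM in null libraries. All 17 oocyte and eggshell genes had positive log2 fold changes (median 0.25), but none had libraries without overlap. Of the 76 ribosomal protein genes, 72 had negative log2 fold changes (median -0.07) and 8 were lower without overlap, where 3.38% of all genes were. Of the 29 major sperm protein genes, 27 were negative (median -0.12) and 0 were without overlap. Of 95 tested genes listed under a collagen name, *col-98* and *col-103* rose and *col-135* fell, where 0.833% of all tested genes rose and 0.249% fell. *col-42*, a collagen gene that the files list as Y69H2.14 and that is not among the 95, also rose, with 944, 915 and 839 TPM in *D327E* worms, against 390, 594 and 678 TPM in null worms (log2 fold change 0.73, adjusted p = 0.045). *col-98* had 858, 836 and 867 TPM in *D327E* worms, against 316, 492 and 628 TPM in null worms (log2 fold change 0.89, adjusted p = 0.024). The markers of intestine, body wall muscle, neuron and germline were present in all 6 libraries and had 0 called members and 0 with an unadjusted p under 0.05.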

How the data were processed

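The files held TPM per gene, which the authors made from single-end reads of 76 bp and deposited as 1 table of 22840 features by 21 libraries. Per the labels, reads were aligned with STAR 2.5.3a to ce10 and counted with featureCounts. TPM has the same total in every library, so depth is unknown and no counting interval is given. The authors' edgeR tables of each mutant against wild type (fold changes, p-values) were not used. limma 3.58.1 in R 4.3.3, with trend and robust estimation, was fitted to log2(TPM + 1) of all 9 genotypes for the 12843 genes averaging 1 TPM or more over all libraries, in place of the study's count test. Genes passed at an adjusted p below 0.1. The fit was tested on simulated data. Named genes are the 12 largest rises and 12 largest falls among called genes with non-overlapping libraries (piRNA, miRNA and other non-coding RNA names left out), *pmk-1*, the cascade, regulator and caspase lists, and called members of listed families. Other named genes were chosen after their values were seen. Members and lists were chosen with earlier results of these data known. Gene names and order came from the WBcel235 annotation, with no coordinates printed as the builds differ. Primer sequences came from the study's supplement. Alternatives changed the pseudocount, filter, scaling, samples, block and threshold.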

Additional observations from a re-analysis of the deposited data

Results flagged for a closer look

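For 3 called genes the contrast differed between *daf-16* backgrounds by limma's interaction test (Benjamini-Hochberg adjusted over all genes, 2 libraries a side in the double mutants). For *grd-15* the log2 fold change, *D327E* minus null, differed from that with *daf-16* intact by -3.33 in *mgDf50* (adjusted p = 0.0067) and by -3.08 in *m26* (adjusted p = 0.025). For *lec-3* the difference in *mgDf50* was 2.90 and for *tcl-2*, a gene of the T cell lineage of the tail, 2.35 (adjusted p = 0.062 each). *tcl-2* had 3.06, 2.97 and 2.96 TPM in *D327E* worms, against 6.74, 10.8 and 7.34 TPM in null worms. In *mgDf50* worms it had 4.32 and 8.94 TPM with *D327E*, against 2.02 and 2.51 TPM with the null allele. In *m26* worms it had 2.96 and 6.64 TPM with *D327E*, against 2.38 and 2.7 TPM with the null allele. With wild-type *pmk-1* it was at 2.62 and 3.05 TPM in *mgDf50* and at 7.18 and 8.37 TPM in *m26*. The level of *tcl-2* thus did not follow the *pmk-1* genotype across strains.

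Another 6 genes, not called with *daf-16* intact, had a contrast that differed in 1 background. In *mgDf50* the differences were 2.87 for *C08F11.7*, 1.02 for *C25F6.1*, 1.1 for *F40B5.2*, -1.28 for *T28F4.6* and -2.48 for *dyf-3*. In *m26* the difference was 1.73 for *Y104H12D.3*. *dyf-3* stood out only in *mgDf50* worms with the null allele (16.8 and 16.9 TPM), and *C08F11.7* only in *mgDf50* worms with *D327E* (11.1 and 15.9 TPM). For the other genes the *D327E* double mutant lay near worms with *daf-16* intact, and *daf-16* alone lay nearer the null double mutant. In *m26*, *dyf-3* was at 2.07 and 1.86 TPM with the null allele, and *C08F11.7* at 0.528 and 0.698 TPM with *D327E*. *Y104H12D.3* was at 7.65 and 9.14 TPM in *m26* worms with the null allele, against 32.8 and 31.8 TPM in such *mgDf50* worms. A difference of strain cannot be told apart from a dependence on 1 *daf-16* allele.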

How the results depend on the processing

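None of the 139 called genes changed sign under any of the 19 alternatives run, 17 planned and 2 chosen after seeing the data. The counts of called genes moved further. A mean of at least 5 TPM left 21 falls, and an adjusted p below 0.05 left 20. A fit of only the 6 libraries called 51 genes (46 rises, 5 falls). Whether the replicate numbers pair the genotypes is not settled. Deviations from the genotype means correlated between *D327E* and null libraries at -0.317, 0.705 and 0.372 for replicates 1, 2 and 3. With the replicate block, the fit of the 6 libraries called 50 (44 and 6) and the fit of all genotypes 268, with 108 falls. The oocyte and eggshell covariate, added later, gave 441 genes (326 rises, 115 falls), and leaving out null libraries 1 and 2 together, also added later, gave 113, with 70 rises. Leaving out 1 library gave 82 to 236 genes, 70 to 112 rises and 12 to 137 falls. Fitting the double mutants alone, 59 called genes passed in *mgDf50* and 103 in *m26*, against 92 and 77. TPM keeps no depth, so the precision of genes near 0 TPM is unknown, and every genotype is 1 strain.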
